A study of Mus musculus with 150 samples.

Results

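Chromosome 1 was followed in single lung tumour cells through the 384 bins that the deposited log2 ratio table lists on it, of 5331 bins in all. The bins were taken by chromosome name alone, with no measured value in the choice, and all 384 passed the filter on depth. They span chr1:3000001-195371971 on GRCm38, a length of 192 Mb, and their median length is 499.6 kb, from 105 to 535 kb. Together they hold 1180 protein-coding genes of the RefSeq table, and the authors' table names no gene in 36 of them. The values of a cell were set relative to its median autosomal bin, over 19 autosomes. A level of 0 thus means the log2 ratio of that median bin in the same cell, which is not a count of copies.

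The study sequenced genomic DNA of single cells from the lung tumours T1, T7 and T9, which had been microdissected one by one from 1 mouse (M3) of the KP group, 30 weeks after tumour induction. Each tumour gave 50 cells, and the labels call their source AT2 cells, the surfactant-making cells of the alveolus. All 3 tumours share the animal and therefore its genotype. The strains listed for the study have a C57BL/6 x Sv129 mixed background with Trp53flox/flox, Rosa26LSL-tdTomato and Rosa26LSL-Luciferase, and a further engineered oncogene allele that is not reported here. Tumours were induced with AdSPC-Cre, an adenovirus whose recombinase is driven by a surfactant promoter, or with AdCMV-FlpO, whose recombinase is driven by a viral promoter. The labels do not say which of these viruses or which reporter this mouse had, nor what the code ND in its group name stands for. DNA carries no expression, so the AT2 label could not be set against marker genes, and no normal cells of this mouse were analysed here. There is 1 mouse, and each tumour is a single sample of which the cells are only parts, so the tumours were described side by side without testing one against another.

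Most mammalian cells carry a pair of each autosome, and tumour cells often gain or lose whole chromosomes when division goes wrong, or parts of chromosomes when DNA breaks are joined wrongly. The p53 protein normally stops or kills cells with such changes, which is why tumours of p53-deficient mice are used to follow them. Chromosome 1 is the longest mouse chromosome; its centromere lies at the start of the coordinates, so it has in effect a single long arm, and parts of it correspond to the long arms of human chromosomes 1 and 2. It carries Mdm4, an inhibitor of p53, Bcl2, a brake on apoptosis, Parp1, a sensor of DNA breaks, and Tgfb2, a secreted growth factor.

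The chromosome also carries microRNA genes, of which the RefSeq table of GRCm38.p6 lists 97 mature strands. Those of 9 well studied ones are shown because they mark positions from the proximal to the distal end and because 3 pairs of them share a seed, bases 2 to 8, written in capitals. They are given 5′ to 3′ in order along the chromosome.
mmu-miR-30a-5p, chr1:23272274-23272295, plus strand: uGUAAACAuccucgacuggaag
mmu-miR-30c-5p, chr1:23291714-23291736, plus strand: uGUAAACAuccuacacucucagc
mmu-miR-26b-5p, chr1:74394324-74394344, plus strand: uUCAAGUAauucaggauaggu
mmu-miR-181a-5p, chr1:137966468-137966490, plus strand: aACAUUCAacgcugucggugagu
mmu-miR-181b-5p, chr1:137966650-137966673, plus strand: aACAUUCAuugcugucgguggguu
mmu-miR-214-3p, chr1:162223438-162223459, plus strand: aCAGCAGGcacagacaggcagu
mmu-miR-205-5p, chr1:193507503-193507524, minus strand: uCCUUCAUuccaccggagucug
mmu-miR-29b-3p, chr1:195037091-195037113, plus strand: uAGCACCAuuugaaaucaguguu
mmu-miR-29c-3p, chr1:195037600-195037621, plus strand: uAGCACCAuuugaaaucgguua
The members of each pair with a common seed, miR-30a and miR-30c, miR-181a and miR-181b, and miR-29b and miR-29c, lie side by side in the same bin, so any change of copy number reaches both at once.

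After removal of 3 noisy cells of T1 and 2 of T7, 145 of 150 remained: T1 kept 47, T7 48 and T9 50. No columns were identical, and the highest correlation between any pair of kept cells was 0.868. A T1 cell had a median of 91.7 Mb of sequenced autosomal bases (range 19.2 to 161), a T7 cell 64.4 Mb (range 22.7 to 134) and a T9 cell 52.9 Mb (range 40.1 to 78.4), so each cell covers only a small share of the genome and single bins are less certain than long stretches. Of these, chromosome 1 received a median of 6.72, 4.91 and 4.09 Mb. The noise of a cell, the scaled median difference between neighbouring bins on the log2 scale, was 0.19 for the median cell of T1, and 0.15 and 0.13 for those of T7 and T9. Shares of cells are given below with exact Clopper-Pearson 95% intervals, which cover counting error only. For a count of 0 the limit given is instead 3 over the number of cells. The exact upper limit is a little higher, 7.40% for 0 of 48 and 7.11% for 0 of 50.

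The first comparison asks whether whole copies of chromosome 1 were gained or lost. In each of the 3 tumours most cells had a chromosome 1 median close to the autosomal one. The cells that departed did so in opposite directions in T1 and mostly downward in T7 and T9. The level, the median log2 ratio of the 384 bins in a cell, ran from -0.66 to 0.34 in T1 with a median of -0.05 (SD over cells 0.22, 47 cells). In T7 it ran from -0.54 to 0.06 with a median of -0.02 (SD 0.11, 48 cells), and in T9 from -0.39 to 0.17 with a median of 0.02 (SD 0.12, 50 cells). All T7 and T9 levels lie inside the range of T1, which reaches further at both ends, and the medians of the 3 tumours differ by less than the SD over cells of any of them. Within 0.15 of 0 lay 34 of 47 cells of T1, 42 of 48 of T7 and 41 of 50 of T9. In T1 this need not mean an even level, as its proximal part had a median of 0.06 and its distal part of -0.14. Other T1 autosomes lay on both sides of 0, with medians such as 0.18 for chromosome 3 and -0.18 for chromosome 15.

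Gain was called at a level of at least 0.32, the log2 of 2.5 over 2 copies, and loss at or under -0.42, the log2 of 1.5 over 2 copies. In T1, 2 of 47 cells were gained for chromosome 1 (4.26%, 0.520 to 14.5%), against 6.38% of all pairs of an autosome and a cell in that tumour, and 3 of 47 were lost (6.38%, 1.34 to 17.5%), against 13.5%. In T7 the gained cells were 0 of 48, which allows a share of up to 6.25%, against 8.11% of all pairs, and 1 of 48 was lost (2.08%, 0.0527 to 11.1%), against 1.64%. In T9 both counts were 0 of 50, which allows up to 6%, against 2.42% of pairs gained and 5.26% lost. None of these intervals lay wholly above the share over all autosomes, which includes chromosome 1. The limit for T7 gains lay below its share, which came from chromosomes 2 (34 of 48 cells), 6 (37) and 15 (3) alone. These few calls depend on the threshold: at 0.45 and -0.70 they were 0 in every tumour, and at 0.25 and -0.30 the gained share of T1 was 14.9%. That share was 2.13% with a weighted mean of the bins and 8.51% when cells were centred on the other 18 autosomes. The lost T7 cell was left out under a noise limit of 1.5 in place of 3 scaled median absolute deviations, which brought that count to 0.

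**Figure D1:**
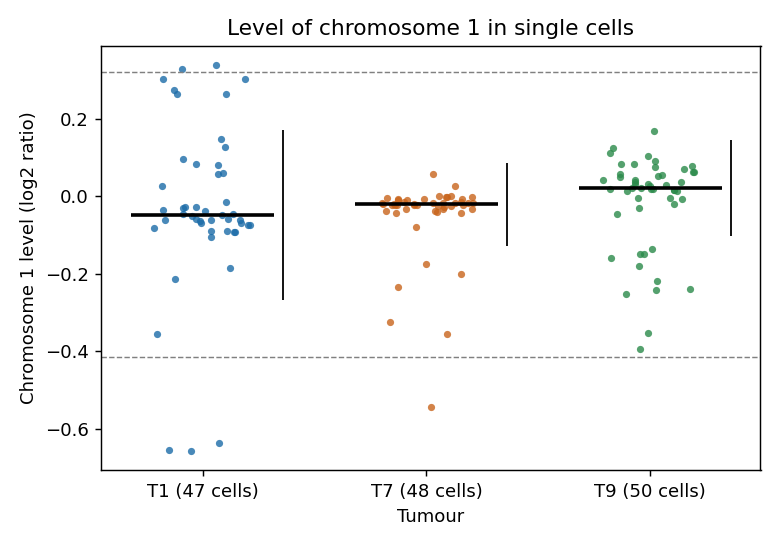
Level of chromosome 1 in each kept cell, as the median log2 ratio of its 384 bins (vertical axis), for T1, T7 and T9 (horizontal axis); each point is a cell, the thick line is the median, the bar beside the points spans 1 SD over cells on either side of it, and the dashed lines are the thresholds 0.32 and -0.42. T1 has cells at both extremes, from -0.66 to 0.34, while T7 and T9 have tails towards lower values only.

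In T1 the cells with a departing chromosome 1 stood apart from the rest. The 3 lowest cells, 180034, 180009 and 180036, were at -0.66, -0.66 and -0.64, followed after a gap of 0.28 by cell 180032 at -0.36. All of chromosome 1 was low in these 3 cells, as they had no break and segment means of -0.65, -0.64 and -0.65. For scale, 1 copy in place of 2 corresponds to -1. At the upper end, 7 cells ran from 0.26 to 0.34 (180010, 180002, 180038, 180037, 180035, 180018 and 180039), with a gap of 0.12 to the next cell, 180046, at 0.15. These 7 levels lie close to the gain threshold, with 2 above it and 5 below it, so the count of gained cells in T1 says less than the values themselves.

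The share of a cell's autosomal bases that fell on chromosome 1, which uses the depth table and no reference, also set apart the extreme cells of T1. It was 4.85% in 180034, 4.88% in 180009 and 4.91% in 180036, against a median of 7.44% in T1, and 9.75% in 180039 and 9.43% in 180018 at the other end. In T7 the share ran from 5.33% to 8.13% with a median of 7.62%, and in T9 from 6.11% to 8.83% with a median of 8.10%. Across cells, Pearson's r between the level and this share was 0.98 in T1 (n = 47), 0.95 in T7 (n = 48) and 0.97 in T9 (n = 50), and both measures come from the same reads. Against the total bases of a cell, Spearman's rho of the level was 0.05, 0.08 and -0.05 in T1, T7 and T9, and against the noise it was -0.09, -0.13 and -0.06.

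T7 had the tightest main group. Its 42 cells near 0 were followed downward by 180087 at -0.17, 180071 at -0.20, 180083 at -0.23, 180085 at -0.32, 180090 at -0.35 and, after a gap of 0.19, by 180092 at -0.54. No T7 cell rose above 0.06, the level of 180068. In T9 the lowest cells were 180117 at -0.39 and 180120 at -0.35, and 9 more lay between -0.25 and -0.14, with a gap of 0.09 to the remaining 39. Its highest cells were 180107 at 0.17 and 180105 at 0.13. The lower T9 levels were graded rather than set apart from one another, and differed in extent. In 180101, 180124, 180139 and 180140 a proximal segment was near or above 0, from -0.01 to 0.18, while the highest segment of 180117, 180120, 180131, 180135, 180109 and 180141 was at -0.20 to -0.11, and 180116 was low except at its distal end.

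Along the chromosome, T1 had a higher proximal than distal part, whereas T7 was flat and T9 nearly so. Over the proximal 192 bins the median level of T1 cells was 0.06 (SD 0.21) and over the distal 192 bins -0.14 (SD 0.25), with a median difference, distal minus proximal, of -0.16 (SD 0.12, from -0.41 to 0.16). The distal part was lower in 32 of 47 cells of T1, by at least 0.15 in 26 of them, and higher by at least 0.15 in 1. In T7 it was lower in 24 of 48 cells and in 0 of 48 by at least 0.15, with levels of -0.03 (SD 0.10) and -0.02 (SD 0.11). In T9 it was lower in 39 of 50 cells but by a median difference of only -0.02 (SD 0.15), and by at least 0.15 in 8 cells.

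In blocks of 20 Mb from the centromere outward, the median over T1 cells was 0.08, 0.17, 0.09, 0.01, -0.10, -0.17, -0.10, -0.16, -0.12 and -0.08. The medians fell from the second block to the sixth, over chr1:19941824-119919066. The SD over T1 cells in these blocks was 0.22 to 0.31, larger than the steps between blocks, since the levels of whole cells differed. In T7 the block medians lay between -0.06 and -0.00191, and in T9 between -0.04 in the last block and 0.06 in the first. In all 3 tumours the last block, chr1:180011353-195371971, had the widest spread over cells, with SDs of 0.31 for T1, 0.19 for T7 and 0.24 for T9.

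**Figure D2:**
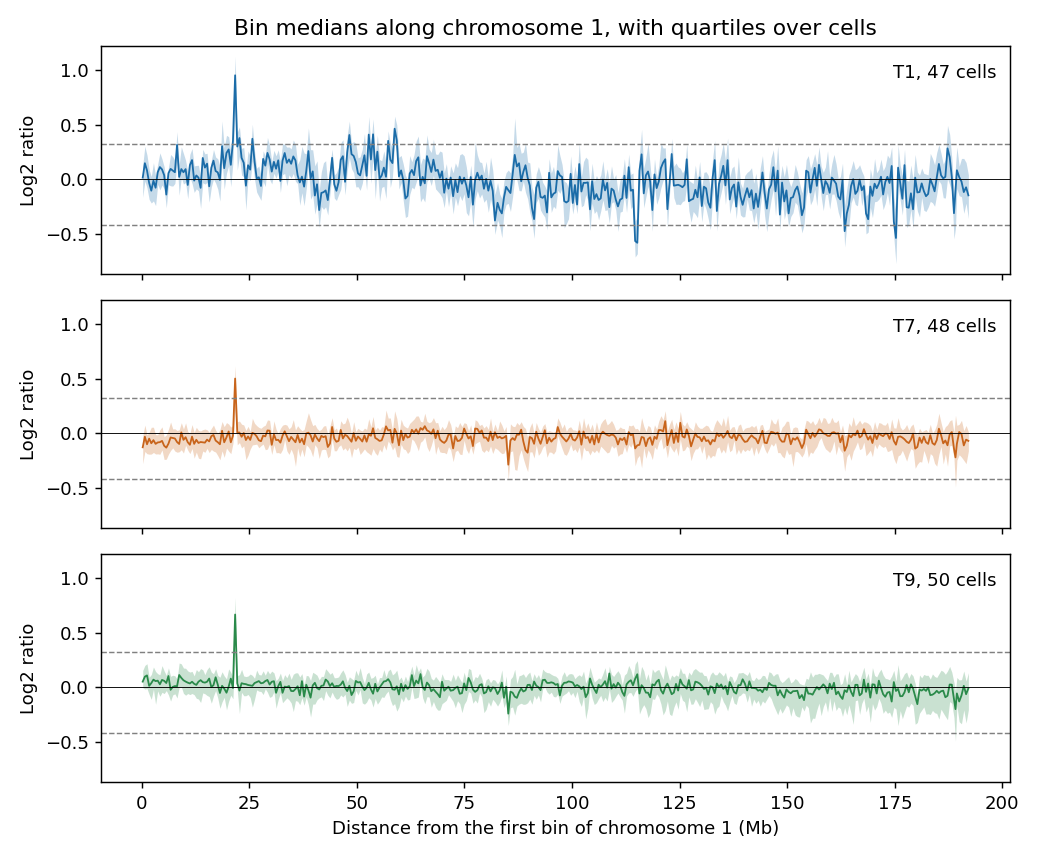
Median log2 ratio of each bin over the cells of T1, T7 and T9 (line, with a band between the quartiles; vertical axis) against the distance from the first bin in Mb (horizontal axis); the dashed lines are the thresholds 0.32 and -0.42. T1 passes from block medians of up to 0.17 in the proximal part to -0.17 in the distal part, while block medians of T7 and T9 stay between -0.06 and 0.06; the sharp peak in all 3 panels is the shared bin described below.

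The T1 slope was not alike in all cells and depended on which table was used. It was absent from the 3 cells with a low chromosome 1, whose difference between the parts was -0.05 to 0.01, and ran the other way in the 7 highest cells, from 0.00441 in 180010 to 0.16 in 180039. Some cells between these also lacked it, such as 180031 at 0.05, 180014 at 0.03, 180043 at 0.02 and 180016 at -0.02. When the ratio was instead taken from the depth table, against the median of the tumour medians of each bin, the T1 bins had medians of 0.00645 over the proximal and -0.02 over the distal part, against 0.05 and -0.08 with the deposited ratio. Across the 384 bins, which share cells and libraries and differ in base composition, Spearman's rho of the bin median with the number of genes in the bin was -0.13, -0.09 and -0.19 in T1, T7 and T9 with the deposited ratio, and 0.53, -0.10 and -0.52 with the depth ratio. The part of gene density or of the reference in the T1 slope was not tested.

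Single bins past a threshold were few, and a single bin rose in all 3 tumours. Of the 384 bins, 10 had a T1 median at or above 0.32, against 11.0% of all autosomal bins, and 4 at or under -0.42, against 12.3%. In T7 the counts were 1, against 10.8%, and 0, against 0.25%, and in T9 they were 1, against 6.28%, and 0, against 4.22%. The shared bin was chr1:24469903-24970750, with a median log2 ratio of 0.95 in T1 (SD 0.35, from -0.17 to 1.47), 0.50 in T7 (SD 0.29, from -0.07 to 1.13) and 0.67 in T9 (SD 0.38, from -0.49 to 1.36). It was at or above the gain threshold in 44 of 47, 33 of 48 and 41 of 50 cells. Its depth over the median depth of chromosome 1 in the same cell was 2.27 (1.09 to 3.54), 1.87 (1.27 to 2.68) and 2.04 (1.12 to 3.76), also without any reference. The bins beside it were not raised alike: the one before it, chr1:23969055-24469902, was at 0.35 in T1 but at -0.02 and -0.01 in the others. The bin holds the end of Col19a1, a collagen gene, and Lmbrd1, a lysosomal cobalamin carrier, with a row of predicted genes (Gm28439, Gm10222, Gm28438, Gm28437, Gm10925, Gm28661 and Gm29216) between them. Predicted genes of this kind are known at a nuclear copy of mitochondrial DNA on this chromosome, and the part of mitochondrial reads in this bin was not tested. Without this bin the share of cells with a break was 74.5%, 29.2% and 62% in T1, T7 and T9, against 76.6%, 31.3% and 70% with it.

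The other bins past a threshold were past it in T1 alone. The raised ones lay in the proximal part, among them chr1:61532659-62033506 in the polarity gene Pard3b at 0.46 (SD 0.31), chr1:55522482-56023329 with no gene named in the table at 0.41 (SD 0.34), chr1:51014850-51515697 with Tmeff2 and Nabp1 at 0.41 (SD 0.23), and chr1:25471599-25972446 in the adhesion receptor Adgrb3 at 0.38 (SD 0.26). All 4 lowered bins lay in the distal part. The neighbours chr1:117920693-118420285, with Tsn, Nifk and Clasp1, and chr1:117421099-117920692 were at -0.58 (SD 0.32) and -0.56 (SD 0.33). The bin chr1:178024469-178521189, with Hnrnpu, an RNA-binding protein of the nucleus, was at -0.54 (SD 0.38), and chr1:166103164-166599884, with Gpa33 and Tada1, at -0.47 (SD 0.31). In T7 the same 4 bins were at -0.16 to -0.10 and in T9 at -0.03 to 0.12, so neither tumour had them near the threshold.

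The next comparison concerns breaks inside the chromosome, positions where the level of a cell steps from one segment to the next. A break was found in most cells of T1 and T9 and in a minority of T7, and in T1 the steps gathered at a few positions. In T1, 36 of 47 cells had a break (76.6%, 62.0 to 87.7%), against 71.2% of all pairs of an autosome and a cell. In T7 the count was 15 of 48 (31.3%, 18.7 to 46.3%), against 40.6%, and in T9 35 of 50 (70%, 55.4 to 82.1%), against 61.9%. Per 100 Mb, chromosome 1 had 0.730 breaks in a T1 cell, 0.260 in a T7 cell and 0.686 in a T9 cell, which ranked 16, 18 and 10 of the 19 autosomes, so it did not stand out in breaks per length. The shares depend on the penalty for a break: a penalty of 6 in place of 3 gave 59.6%, 14.6% and 44%, and a penalty of 2 gave 68.8% in T7, while the ratio from the depth table gave 97.9%, 56.3% and 88%.

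Most steps were small. The median size was 0.28 over 66 breaks in T1, 0.15 over 24 in T7 and 0.18 over 66 in T9, and the largest was 0.97, 1.03 and 0.74. Steps of at least 0.3 were found in 13 of 47 cells of T1 (27.7%, 15.6 to 42.6%), 2 of 48 of T7 (4.17%, 0.509 to 14.3%) and 9 of 50 of T9 (18%, 8.58 to 31.4%). Those of at least 0.5 were in 1, 1 and 3 cells. Downward steps, away from the centromere, outnumbered upward ones with 42 to 24 in T1, 15 to 9 in T7 and 48 to 18 in T9. Number of breaks and noise of a cell had Spearman's rho values of -0.05, 0.25 and -0.08 in T1, T7 and T9.

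**Figure D3:**
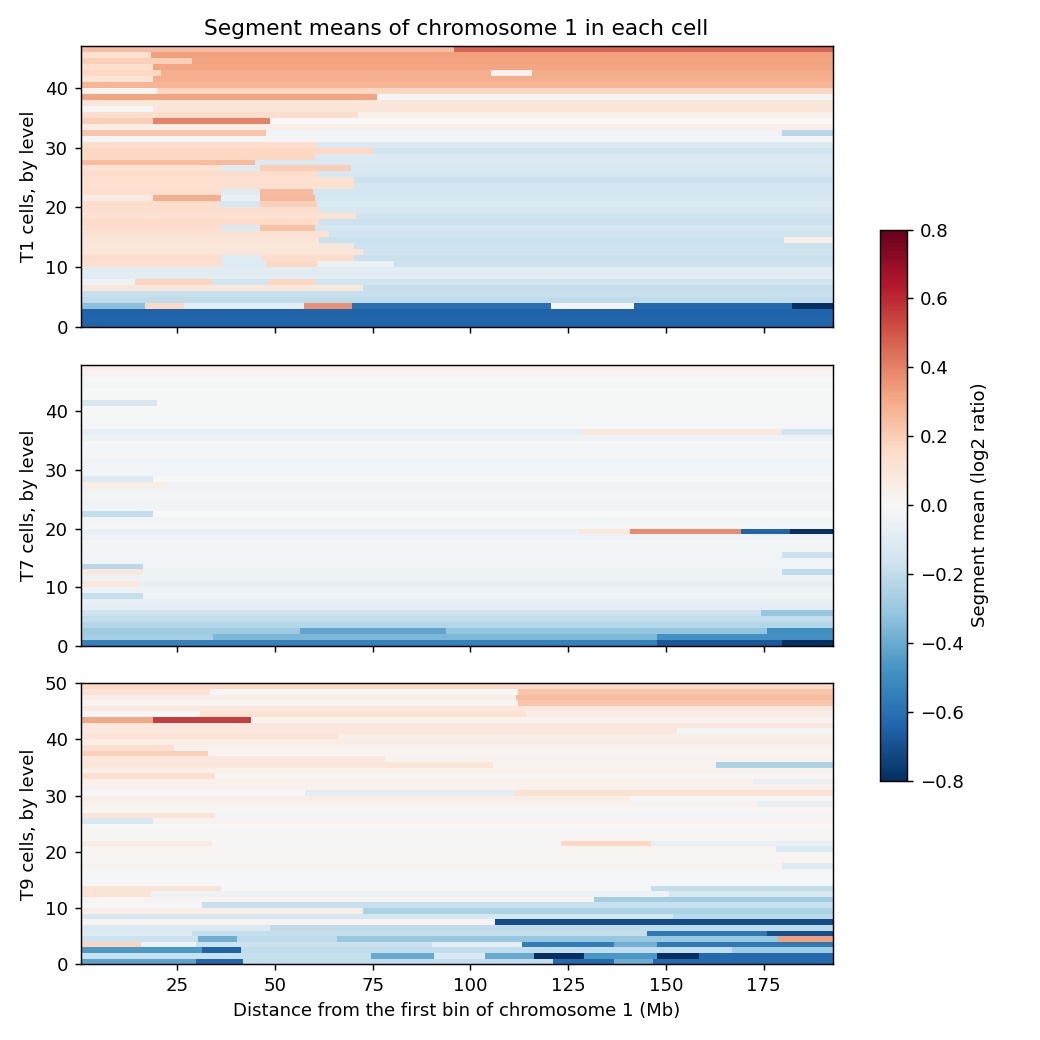
Segment means of every kept cell along chromosome 1, each row a cell and the colour its log2 level, with the distance from the first bin in Mb on the horizontal axis and the cells of T1, T7 and T9, ordered by their level, in separate panels. In T1 many rows turn from positive to negative in the same stretch, where 25 of 47 cells step down, and in T9 a few rows are low in the distal part only.

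In T1 the block chr1:60030115-80234329 held 26 of the 66 breaks, and 25 of 47 cells stepped down in it, against 0 of 48 in T7, which allows up to 6.25%, and 5 of 50 in T9. Within it, 12 T1 cells broke at chr1:62534355-64036899, all downward by 0.22 to 0.40 with a median of -0.30, and 8 other cells at chr1:72050468-74053860, all downward with a median of -0.29. No cell had both, but many pairs of positions from these intervals lie closer together than the shortest segment allowed. The absence of cells with both is therefore partly built in and does not show separate groups of cells. The first interval was not broken in any of the 48 cells of T7 or the 50 of T9, and neither was the second. The part of the chromosome beyond these steps is the one whose T1 median was below 0 in the block profile, and the same caution on the source of the ratio holds for it.

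A second recurrent pattern of T1 was a dip bounded by 2 break positions. Between chr1:38493648-39495344, where 7 cells stepped down with a median of -0.26, and chr1:49011458-49512306, where 6 cells stepped up with a median of 0.33, all 6 cells of the second position also had the first. In these 6 cells the stretch between lay at -0.14 to -0.06, after 0.12 to 0.29 before it and with 0.14 to 0.26 after it. It was 10.0 to 10.5 Mb long in them, at or just above the 10 Mb that a segment needs. The limit on segment length therefore partly sets the bounds of the dip and the pairing of its break positions in these 6 cells. Cell 180015 had a like dip over chr1:39495344-50514001, 11.0 Mb long, at -0.10 between 0.14 and 0.17. In cell 180044 a longer one ran over chr1:36490256-51014849, 14.5 Mb, at -0.15 between 0.18 and 0.17. The upward steps of both cells lay beyond the second position. In T9 a single cell, 180113, broke at the first position and 0 of 50 at the second, and in T7 0 of 48 broke at either. Ercc5, a nuclease of DNA repair, and the collagen genes Col3a1 and Col5a2 lie in this stretch.

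Positions shared by all 3 tumours were also found. At chr1:20938402-21436691 the level changed in 11 cells (T1 6, T7 2, T9 3), upward in 10 of them, with a median step of 0.18. Near the distal end, at chr1:181004795-183038091, it changed in 2, 4 and 3 cells, downward in 7 of the 9, and the 4 cells of T7 all broke at the same bin, starting at 182494958. At chr1:35488560-37491952 it changed downward in 1, 1 and 5 cells with a median of -0.12. At chr1:16952090-19443535 it changed in 2, 4 and 1 cells, upward in 4 and downward in 3. In T9 the block chr1:19941824-39996192 held 17 of the 66 breaks. In it 14 of 50 T9 cells stepped down and 3 up, against 9 down and 9 up of 47 in T1, and 2 down and 3 up of 48 in T7. Positions with most of their breaks in T9 were chr1:32483472-33986016, with 6 cells, downward in 5, chr1:113923943-116921505, with 6 cells, and chr1:149024231-149530982, with 3 cells, all downward. At the second of these, 4 cells stepped up (180105, 180106, 180133 and 180143) and 2 stepped down.

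**Figure D4:**
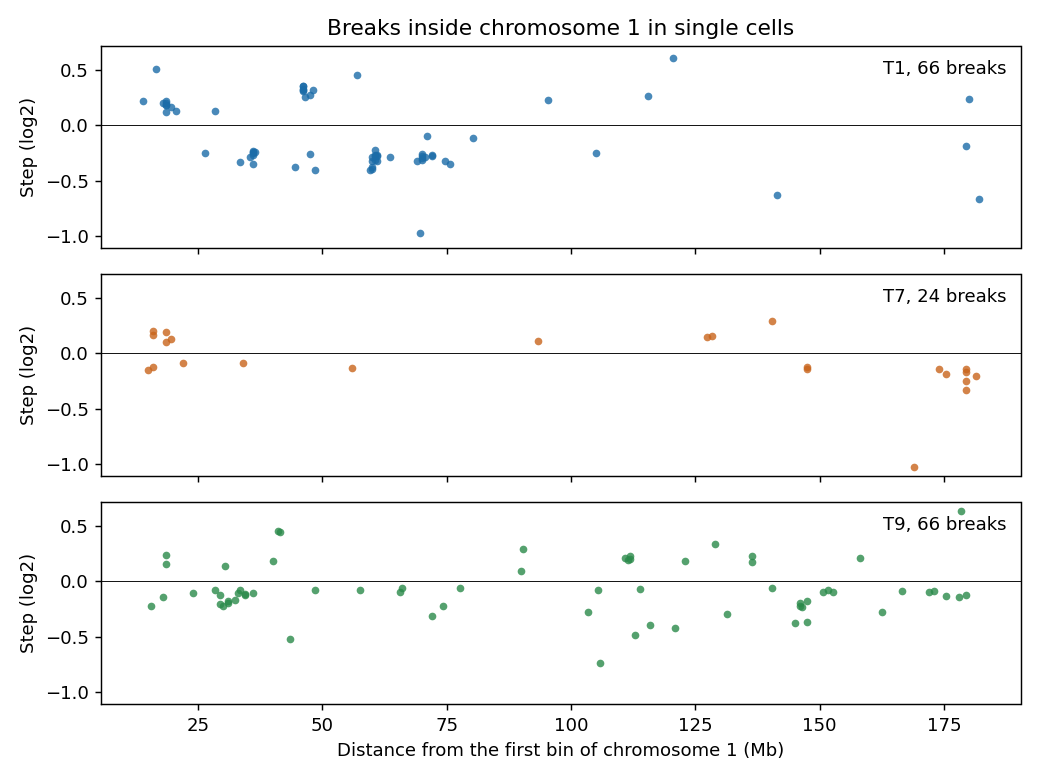
Each point is a break in a cell, placed by its distance from the first bin in Mb (horizontal axis) and the size of the step in log2 units, distal minus proximal segment (vertical axis), for T1, T7 and T9. The T1 points crowd below 0 in a narrow stretch where 25 of 47 cells step down, and T7 has 24 breaks in all. The T9 points reach over the chromosome, but 17 of the 66 lie in chr1:19941824-39996192, where 14 of 50 cells step down. Segments of at least 10 Mb leave no break in the outermost 10 Mb of either end.

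Cells with a break and a called segment numbered 6 of 47 in T1 (12.8%, 4.83 to 25.7%), 4 of 48 in T7 (8.33%, 2.32 to 20.0%) and 8 of 50 in T9 (16%, 7.17 to 29.1%). Over all bins and cells, 6.12% of the pairs on chromosome 1 lay in gained segments in T1, against 7.9% of all autosomal pairs, and 7.51% in lost ones, against 14.4%. In T7 the pairs were 0.309% gained, against 9.92%, and 3.41% lost, against 2.4%. In T9 they were 0.406% gained, against 6.48%, and 4.41% lost, against 6.32%. Gained segments of chromosome 1 were therefore rare in T7 and T9 beside the pooled share, but that share was uneven over autosomes. By chromosome median, gains in T7 were called only on chromosomes 2 (34 of 48 cells), 6 (37) and 15 (3). In T9, 11 of the 23 such gains were on chromosome 6. The scarcity of gains was thus not particular to chromosome 1.

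The most broken T1 cell was 180032, with 7 breaks and 8 segments. Its level was -0.34 to 19443534, 0.17 to 29478382, -0.08 to 60030114 and 0.37 to 72551315, and then fell to -0.60 over chr1:72551316-123416222. It returned to 0.01 over chr1:123416223-144463471, fell to -0.63 and ended at -1.29 over the last 10.4 Mb, the lowest segment named in T1. In this cell 52.8% of the chromosome was lost and 6.52% gained, and it accounts for all 5 steps of at least 0.5 in T1. Gains of part of the chromosome were seen in 180039, at 0.24 to 98436538 and 0.47 beyond, in 180033, at 0.40 over chr1:21436691-51515697 between 0.20 and -0.01, and in 180042, at 0.32 to 78700497 and -0.02 beyond. Cell 180018 was at 0.13 to 20938401 and 0.33 beyond.

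T7 had few such cells. In 180080 the level was 0.38 over chr1:143449971-172063816, then -0.65 to 184503677 and -0.86 to the end, with -0.05 over the first 127 Mb, so a gained stretch stood directly before a lost end. In 180092 all of the chromosome was low, at -0.54, with further steps to -0.68 at 150544483 and to -1.01 at 182494958. In 180090 the level went from -0.27 to -0.36 and to -0.48 from 150544483, the same bin at which 180092 stepped. In 180085 the segments ran from -0.29 to -0.50.

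T9 had the largest number of cells with a lost part. In 180139 the level was 0.02 to 108928006 and -0.72 from there to the end, a single step over 86.4 Mb. In 180135 the distal part was at -0.57 from 148010729 and at -0.70 from 178521190. Several low cells broke at the same bins: 180117 and 180124 both returned from a lost stretch, at -0.62 and -0.56, to -0.39 at 139403221, and both broke at 32483472. Cells 180124 and 180120 both fell at 150544483, to -0.57 and -0.83, while 180117 fell to -0.62 a little earlier, at 149530982. Near the proximal end, 180117 and 180131 were both lost, at -0.43 and -0.46, and both fell further to -0.64 and -0.65 up to 44503824 and 44002976. Cell 180116 dipped over much of the same stretch, chr1:32984320-43001280, to -0.39 between -0.17 and -0.21, and was gained, at 0.33, over chr1:181501516-195371971. The only other gained segment of T9 was in 180148, at 0.55 over chr1:21436691-46507216, between 0.31 and 0.03. Several short segments of the low cells were near the 10 Mb that a segment needs. The proximal dip was 10.0 Mb long in 180131 and 180116 and 12.0 Mb in 180117. The stretch from 139403221 was 10.1 Mb long in 180117 and 11.1 Mb in 180124. The limit on segment length thus partly sets these bounds and their likeness between cells.

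A stretch was called a region of a tumour where every bin of it lay in segments called the same way in 10% of that tumour's cells or more. A single region met this, the distal end of chromosome 1 in T9, lost over chr1:150544483-195371971 in 5 of 50 cells (10%, 3.33 to 21.8%), namely 180117, 180120, 180124, 180135 and 180139. It spans 44.8 Mb and 90 bins, 23.4% of the 384, against 12.6% of all autosomal bins of T9 lost in as many cells, and holds 398 protein-coding genes, 33.7% of those on the chromosome. Over all T9 cells its median level was -0.02 (SD 0.22, from -0.75 to 0.24). The same stretch was at -0.11 in T1 (SD 0.26, from -0.75 to 0.46), where most of it was lost in 4 of 47 cells, and at -0.02 in T7 (SD 0.14, from -0.66 to 0.07), where this held for 3 of 48. The intervals of these counts overlap widely, and the T9 count lies at the limit of the definition: with thresholds of 0.45 and -0.70 no bin met it, and with 0.25 and -0.30 it was met by 143 bins.

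No gained region reached 10% in any tumour, against 20.5% of all autosomal bins gained in that share of cells in T1, 13.6% in T7 and 7.47% in T9, and no lost one in T1, against 24.2%, or T7, against 5.31%. The highest gained share of any chromosome 1 bin was 4 of 47 cells in T1 (8.51%, 2.37 to 20.4%), 1 of 48 in T7 and 1 of 50 in T9. The highest lost share was 4 of 47 in T1 and 4 of 48 in T7 (8.33%, 2.32 to 20.0%), the latter over chr1:178521190-195371971, 34 bins at the same distal end as in T9. With cells above the noise limit kept, these 34 bins of T7 met the definition, and with segments of at least 5 Mb allowed, 15 bins of T1 were gained and 11 of T7 lost by it.

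Genes were read from 8 lists of 75 names, of which 71 were placed on chromosome 1 by the RefSeq table; Traf5, Faslg, Acvr1 and Chi3l1 were not. A gene's level is the mean of the segment that holds it, so neighbouring genes share a value and are not separate observations. In T1 and T7, 0 of 71 genes were gained or lost in at least 10% of the cells. In T9, 22 of 71 were lost (31.0%) and 0 gained, and the 22 are those of the lists that lie in the distal region, each in the same 5 cells. This share is near that of all protein-coding genes of the chromosome lost by the same rule (33.7%), so neither it nor the counts of the single lists say anything particular to the listed genes. They are 2 of 10 genes of p53 regulation and cell cycle (Cenpf, a kinetochore protein, and Nek2, a centrosome kinase), 2 of 5 of DNA repair (Exo1, an exonuclease, and Parp1), 1 of 6 of apoptosis (Fasl, the ligand of a death receptor), and 3 of 10 kinases and RAS regulators (Abl2, Rasal2 and Ddr2). Of the genes of TGF-beta, matrix and mesenchymal state there were 4 of 11 (among them Lamc1, Prrx1 and Tgfb2), of the transcription factors 4 of 12 (among them Creg1, Prox1 and Atf3), of the immune signals 3 of 12 (Fcgr3, Slamf7 and Cd48) and of metabolism 3 of 5 (Glul, Soat1 and Prdx6). The median gene of a list was at -0.13 to -0.02 in T1, at -0.03 in T7 and at 0.02 in T9, beside -0.13, -0.03 and 0.02 for the median of all 384 bins. With the ratio from the depth table, 51 of the 71 genes met the rule in T1, and with thresholds of 0.25 and -0.30, 68 in T1, 6 in T7 and 39 in T9.

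Median gene levels followed the profile of the chromosome, from -0.13 to 0.14 in T1, at -0.03 throughout in T7, and from -0.00337 to 0.02 in T9, all smaller than the SD over cells. Mdm4 (chr1:132986105-133030587) had a median of -0.13 in T1 (SD 0.23), with 3 of 47 cells gained and 3 lost, of -0.03 in T7 (SD 0.11), with 0 gained and 1 of 48 lost, and of 0.02 in T9 (SD 0.20), with 0 gained and 4 of 50 lost. Its neighbours had the same counts of gained cells, and 3 of 47 is close to the 6.12% of all pairs of a chromosome 1 bin and a T1 cell that were gained. Bcl2 (chr1:106538176-106714290) had medians of -0.13 (SD 0.24), -0.03 (SD 0.11) and 0.02 (SD 0.11), with 3, 0 and 0 cells gained and 4, 1 and 0 lost. Cxcr4 (chr1:128588199-128592299), a chemokine receptor of migrating cells, had the same medians, with 3, 0 and 0 cells gained and 3, 1 and 4 lost. Parp1 (chr1:180568891-180600999) was lost in 4 of 47, 4 of 48 and 5 of 50 cells, with medians of -0.13 (SD 0.25), -0.03 (SD 0.17) and 0.01 (SD 0.23). With the ratio from the depth table, the T1 medians were -0.38 for Bcl2, 0.10 for Mdm4, 0.10 for Cxcr4 and 0.23 for Parp1, so the sign turned for all of these but Bcl2.

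In T1 the genes with the highest medians of their lists lay before 62534355, where the first of the recurrent downward steps in the fourth block starts, and those with the lowest lay beyond 74053860, where the second ends. Icos, a costimulator of T cells, was at 0.14 (SD 0.23), as were its neighbours Cd28 and Ctla4, and Casp8, the initiator caspase of death receptors, and Bmpr2, a receptor of bone morphogenetic proteins, at 0.13 (SD 0.23). Mcm3, a part of the replicative helicase, was at 0.13 (SD 0.21), and Ercc5 and Map4k4 at 0.11 (SD 0.24). Bok, a pore former of the Bcl2 family, and Gli2, a factor of hedgehog signalling, were at -0.13 (SD 0.24 and 0.25), and Tgfb2, Cenpf, Prox1 and Nek2, near the distal end, at -0.13 with the widest spread of the genes (SD 0.29). These differences between genes follow the slope of the T1 profile, and what was said of its source applies to them. The T1 median of the single bin had the other sign for Ercc5, at -0.28 (SD 0.31), and Map4k4, at -0.03 (SD 0.33). It also did for Gli2, at 0.23 (SD 0.36), Prox1, at 0.28 (SD 0.41), and Cenpf, at 0.02 (SD 0.36). The bins of the other genes named here had the sign of their segments.

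The microRNA genes shown above followed their positions. The bin of miR-30a and miR-30c, which share the seed GUAAACA, had a median of 0.27 in T1 (SD 0.29), 0.02 in T7 (SD 0.19) and 0.01 in T9 (SD 0.23). The last bin, with miR-29b and miR-29c of the seed AGCACCA, was at -0.15 (SD 0.26), -0.07 (SD 0.17) and -0.01 (SD 0.25), and its segment was lost in 4 of 47, 4 of 48 and 5 of 50 cells. Mir205, in the same distal stretch, was lost in as many. Mir181a-1 and Mir181b-1 were lost in 3, 1 and 4 cells, and Mir26b in 4, 2 and 0.

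The last comparison concerns the spread between cells. The SD over cells of the chromosome 1 level, 0.22 in T1, 0.11 in T7 and 0.12 in T9, ranked 3, 7 and 13 among the 19 autosomes of the tumour. The scaled median absolute deviation, which is not moved by a few far cells, was 0.0629, 0.0189 and 0.0620 and ranked 14, 16 and 9. In T1 and T7 the high rank of the SD thus rested on the few cells far from 0 named above, while the main body of cells was close together. The proximal and distal levels varied together across cells, with Pearson's r of 0.86 in T1 (Spearman's rho 0.74, n = 47) and 0.96 in T7 (rho 0.39, n = 48), and less closely in T9, with r of 0.64 (rho 0.64, n = 50), where the distal level had the larger SD, 0.19 against 0.11. Both levels of a cell share its library and its centring.

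**Figure D5:**
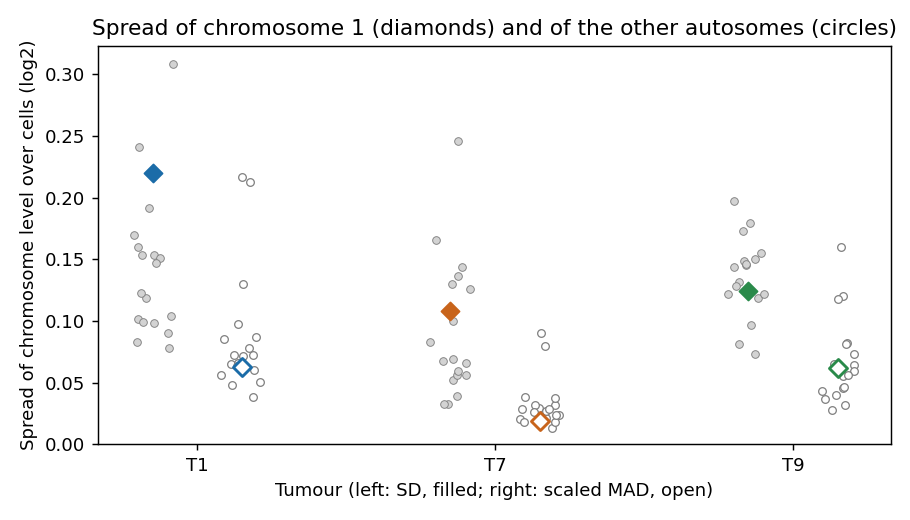
Spread over cells of the chromosome level (vertical axis, log2 ratio) in T1, T7 and T9 (horizontal axis), as the SD (filled, left) and the scaled median absolute deviation (open, right); diamonds are chromosome 1 and circles the other autosomes. Chromosome 1 ranks 3 by SD in T1, at 0.22, but ranks 14 by the scaled median absolute deviation, at 0.0629.

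Across cells of a tumour the level of chromosome 1 was set beside that of each other autosome as a description. In T1 the values of Pearson's r largest in size were -0.63 with chromosome 2 (rho -0.59), -0.63 with chromosome 13 (rho -0.62) and -0.59 with chromosome 8 (rho -0.50). They were followed by -0.56 with chromosome 10 (rho -0.46), 0.50 with chromosome 3 (rho 0.39) and -0.49 with chromosome 14 (rho -0.48, n = 47 each). In T7 r was -0.59 with chromosome 13 (rho -0.22), -0.50 with chromosome 17 (rho -0.03) and -0.48 with chromosome 7 (rho -0.38, n = 48 each). For chromosomes 13 and 17 rho was much smaller, so those values rest on few cells. In T9 r ran from -0.35 to 0.26 (n = 50). The chromosomes of a cell share its library and centring, which links their levels, and these values were not tested.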

How the data were processed

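Genomic DNA of 150 single cells was sequenced. Per the submitters' processing notes, the reads were mapped with BWA 0.7.17 and the build was GRCm38. The deposited tables hold, per the file headers, for each of 5331 bins, a coverage signal (mean depth), a log2 ratio and a weight, a score between 0 and 1; tool and reference behind the ratio and weight: not given in the sources used here. In this work the deposited log2 ratio was used as it stands and centred on each cell's autosomal median. Bins with depth and a finite ratio in at least 80% of cells were kept, and cells with depth in at least 80% of autosomal bins and noise of at most 0.267 (median plus 3 scaled median absolute deviations). No doublet caller was run. Segments came from least-squares optimal partitioning of values held within -3 and 6 (1 value was clipped), where each break costs 3 times ln(bins) times the squared noise and a segment has at least 5 bins and 10 Mb. The method was run on simulated profiles with at most a single step in independent normal noise. That check does not cover several breaks in a cell or departures shared by neighbouring bins.

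Recurrent break positions are breaks of at least 3 cells with gaps of at most 1 Mb; these, the step sizes and the breaks by block were chosen after values were seen. Named were at most 5 bins per direction past a threshold, at most 8 cells per tumour with the largest segment means, the highest and lowest gene of each list, and Mdm4, Bcl2, Parp1 and Cxcr4; cells at the ends of the ranked levels and at shared breaks, and the remaining genes of the distal region, were named after their values were seen. Some items that these rules name are not reported here. Members, lists and tests were chosen with earlier results of these data known. Alternatives varied the ratio's source, centring, bins, cells, thresholds and segmentation; centring on the other 18 autosomes was added after seeing the data. Each tumour is 1 sample, so no test was made. Python 3.11.15, numpy 2.4.6, pandas 2.3.3, scipy 1.17.1 and matplotlib 3.10.9 were used. Sequences and gene positions came from RefSeq tables of GRCm38.p6.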

Additional observations from a re-analysis of the deposited data

How the results depend on the processing

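The level of chromosome 1 moved by less than its SD over cells in all 24 comparisons with an alternative. No median level was past a threshold in the main setting, so a called level could not change direction. The sign of the T9 level turned with mode centring, from 0.02 to -0.01. In T1 the signs of Mdm4, Cxcr4 and Parp1 turned with the ratio from depth. Under mode centring, without the bin alike in all tumours, with a bin filter of 95%, with the weighted mean and with centring on the other 18 autosomes, each share stayed within the interval of the main value. A few calls still moved: the gained share of T1 was 2.13% with the weighted mean and 8.51% with the other 18 autosomes, the lost share of T1 was 8.51% with mode centring, and the lost share of T9 was 2% with mode centring and with the other 18 autosomes. The ratio taken from depth raised the share of cells with a break to 97.9%, 56.3% and 88% in T1, T7 and T9, and gave 181 gained and 96 lost bins in T1 by the 10% rule, and 51 genes in T1, with T1 medians of -0.38 for Bcl2, 0.10 for Mdm4, 0.10 for Cxcr4 and 0.23 for Parp1. A noise limit of 1.5 median absolute deviations brought the lost share of T7 to 0, and no noise limit gave T7 an SD of 0.23, 34 lost bins and 6 genes. Thresholds of 0.45 and -0.70 brought to 0 the gained and lost shares of T1, the lost share of T7, and the lost bins and genes of T9. Thresholds of 0.25 and -0.30 gave a gained share of 14.9%, 347 gained bins and 68 genes in T1, 37 lost bins and 6 genes in T7, and 143 lost bins and 39 genes in T9. A penalty of 6 gave breaks in 59.6%, 14.6% and 44% of cells, and a penalty of 2 in 93.6% of T1 and 68.8% of T7, with 66 gained bins in T1. Segments of at least 5 Mb gave 15 gained bins in T1 and 11 lost in T7. For thresholds, penalty and segment length the change follows from the setting's construction; otherwise the cause was not tested. No paired analysis was possible because the number of a cell occurs in a single tumour and no test was made. At a median of 52.9 to 91.7 Mb of autosomal bases per cell, single bins of a cell are uncertain, and segments under 10 Mb were not sought.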
